A study of Rattus norvegicus with 10 samples.

Results

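Messenger RNA levels of 10 genes of cell division and growth arrest were followed across 10 rat lacrimal glands, each hybridised to 1 Affymetrix rat array. The genes were the mitotic and replication genes Ccnb1, Cdk1, Top2a and Pcna, the D-type cyclins Ccnd1, Ccnd2 and Ccnd3, and the growth arrest genes Ccng1, Cdkn1a and Cdkn1b. Every probe set to which the platform annotation gave 1 of these symbols was taken, 23 of 8740 probe sets. Of the 23, 18 probe sets of 8 genes lay above the filter on dim probe sets and were tested among 6118 in all. The other 5 were the single probe sets of Cdk1 and Cdkn1b and 1 each of Ccnb1, Top2a and Cdkn1a. For these only intensities are compared, and a test of them without the filter is given where it is named.

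Denervated glands (n = 5) were taken 7 days after the greater superficial petrosal nerve was cut, which carries the parasympathetic supply of the lacrimal gland. The 5 control glands were 3 contralateral glands at the same time, 1 gland 7 days after a sham operation and 1 gland of an unoperated animal. For the contralateral glands titles and descriptions disagree on the side, and grouping here follows the titles. No label gives strain, sex, age or which glands share an animal, so p-values measure the spread between these glands only.

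Cells enter division when D-type cyclins, induced by growth signals, activate their kinases and release the E2F factors that switch on genes of DNA replication. Cyclin B1 with Cdk1 then drives entry into mitosis. The inhibitors p21 (Cdkn1a) and p27 (Cdkn1b) hold these kinases in check, and p21 and cyclin G1 (Ccng1) are induced by p53 after stress or DNA damage. Adult lacrimal glands are made mostly of acinar cells that secrete and rarely divide.

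Intensity here is the authors' scaled brightness of a probe set on a linear scale, and 156.2 was the floor below which values were given no order. Median intensity of the arrays ran from 554 to 979, and the Pearson correlation between a pair of arrays, across probe sets, from 0.715 to 0.912. Of 10 acinar markers tested, 9 were above the floor in all 10 glands. In whole glands, fewer cells of a type cannot be told apart from less RNA per cell. Denervated 2 and denervated 5 stood apart from the other glands for many probe sets: in 9.30% of the 6118 tested, both lay above all of the other 8 glands, and in 6.37% both lay below. Contralateral 1, sham and denervated 1 were also known to stand apart, and values without them are given where they matter.

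In denervated glands none of the genes passed the test against control glands. The most marked pattern was that some probe sets of mitotic and replication genes and of Ccnd1 were high in denervated 2 and denervated 5. For 7 of the 23 probe sets, or 30.4%, both of these glands lay above the other 8, against 7.20% of all 8740. These were the probe set of Cdk1, 1 of the 2 tested of Top2a, 2 of Pcna and 3 of the 5 of Ccnd1. Probe sets of the same gene, as for Pcna and Ccnd1 here, are not independent measures. Among the 18 tested probe sets the count was 6, or 33.3%, against 9.30% of all tested. It was 5 with median scaling, against 6.28% of all tested, where Pcna M24604_at and Ccnd1 D14014_at dropped out and Ccnd2 D16308_at came in, and 9 without contralateral 1, sham and denervated 1, against 14.2% of all tested. For Ccng1 and 1 untested probe set of Cdkn1a both glands lay below the other 8, which is 1 of 18 tested, against 6.37% of all tested. Ccnb1, Ccnd2, Ccnd3 and Cdkn1b did not show either order. These 2 glands were named with earlier results of the same arrays known, so the order is a description and carries no test.

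**Figure D1:**
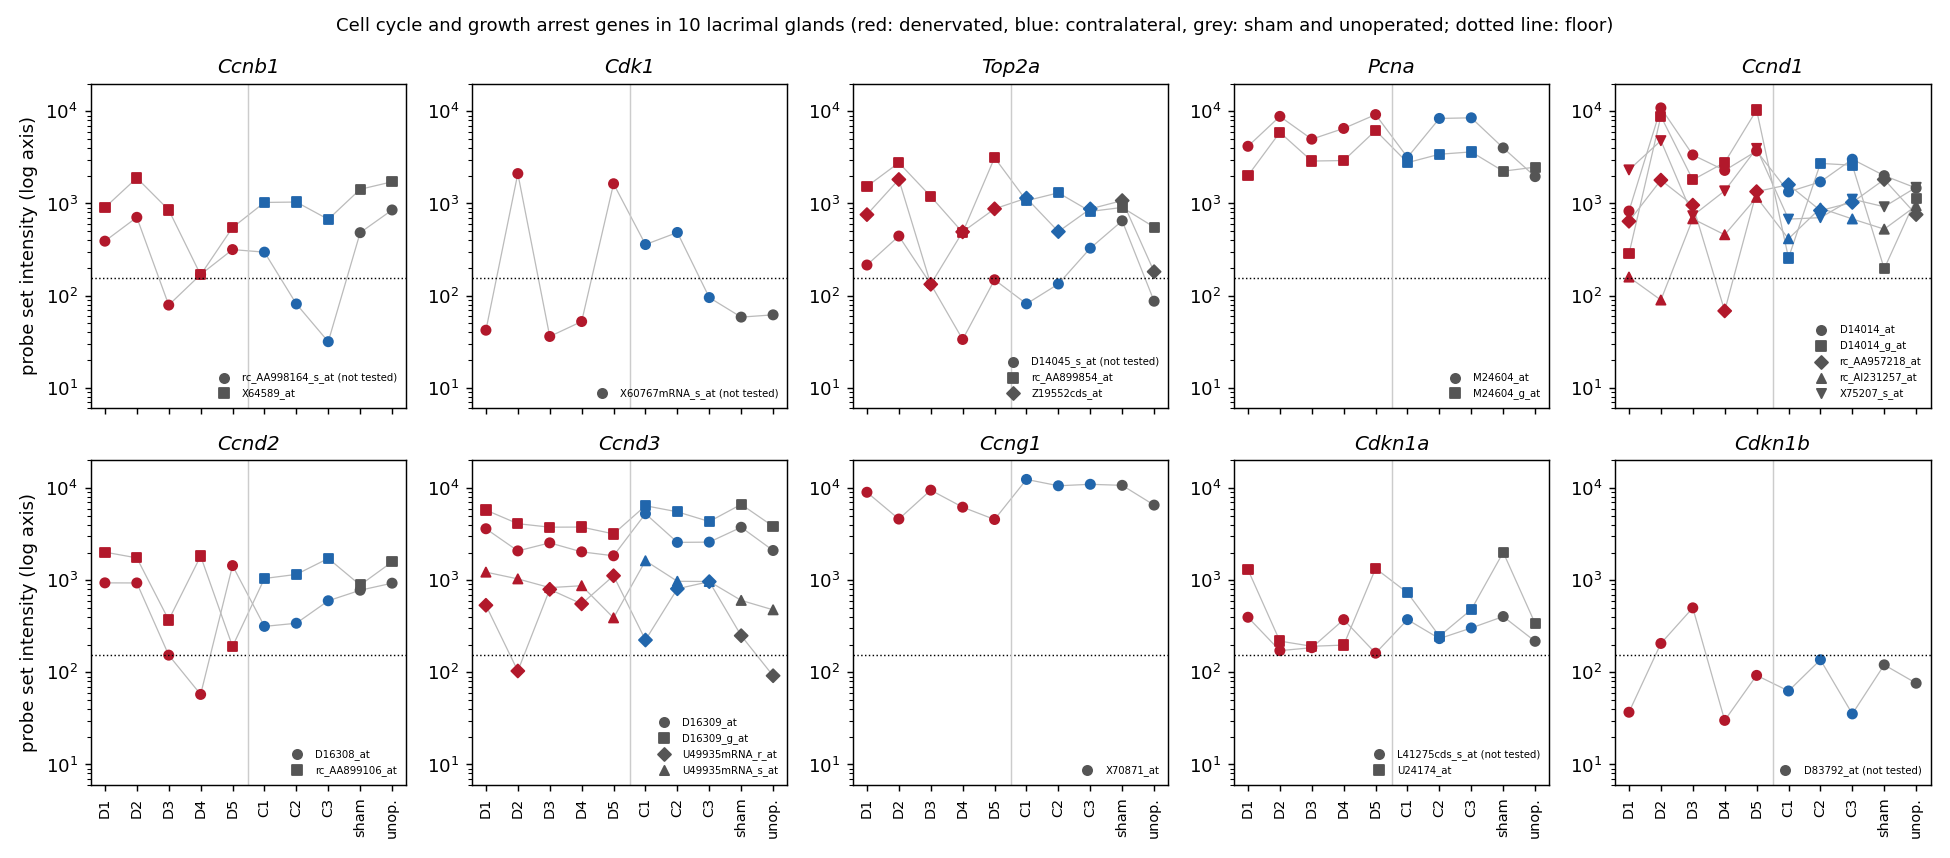
Intensity of each probe set (log axis) in denervated glands 1 to 5 (D1 to D5, red), contralateral glands 1 to 3 (C1 to C3, blue), and the sham and unoperated glands (grey), with marker shapes for the probe sets of a gene and a dotted line at the floor of 156.2. Cdk1 is 2111 in D2 and 1638 in D5 and at most 484.5 in every other gland, while Ccng1 is lowest in the same 2 glands.

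Cdk1, the kinase that drives mitosis, gave the clearest example. Its probe set X60767mRNA_s_at had intensities of 42.1, 2111, 36, 52.3 and 1638 in denervated glands 1 to 5, against 358, 484.5 and 95.2 in contralateral glands 1 to 3, 58.4 in the sham gland and 61.8 in the unoperated gland. Denervated 2 and 5 were thus the high glands, the lower of them 3.38 times the highest of the other 8. Denervated 1, 3 and 4 were at the floor, as were 3 of 5 controls, and the groups overlap. The probe set averaged too low over the 10 glands to pass the filter. Without the filter it differed from control glands by 0.86 ± 0.86 (log2, SE), with a limma adjusted p of 0.777.

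Top2a encodes the topoisomerase that untangles DNA in dividing cells. Its probe set rc_AA899854_at had 1531, 2769.7, 1193, 484.5 and 3143 in denervated glands 1 to 5, against 1071, 1305.5 and 820.1 in contralateral glands, 905.5 in the sham gland and 554 in the unoperated gland. The highest glands were denervated 2 and 5, denervated 1 also exceeded every control, and denervated 4 lay below every control. The log2 difference was 0.75 ± 0.50 (SE; limma adjusted p = 0.640). A second probe set, Z19552cds_at, had 757, 1822, 133, 492 and 875 in denervated glands, against 1143, 495 and 874 in contralateral glands, 1075 in the sham gland and 182 in the unoperated gland. Here only denervated 2 exceeded the controls, and the log2 difference was -0.012 ± 0.69 (SE). The dim probe set D14045_s_at was highest in the sham gland, with 443 in denervated 2, 148.5 in denervated 5 and 648.5 in the sham gland.

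Pcna is the sliding clamp of the replication fork. At M24604_at, denervated glands 1 to 5 had 4175.5, 8819, 4991, 6526 and 9225, contralateral glands 3168, 8378 and 8509.8, the sham gland 4011 and the unoperated gland 1958. The lead of denervated 2 and 5 was small here, the lower of them 1.04 times contralateral 3, the highest of the rest. At M24604_g_at, which is drawn from the same transcript and is no independent measure, denervated glands had 2006, 5918, 2889, 2924 and 6198, against 2775, 3424.5 and 3629 in contralateral glands, 2243 in the sham gland and 2479.7 in the unoperated gland. Both were clearly higher there, by 1.63 times or more, and denervated 1 was the lowest of the 10. Log2 differences were 0.53 ± 0.40 and 0.34 ± 0.33 (SE; limma adjusted p = 0.676 and 0.753).

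Ccnb1, the cyclin that activates Cdk1, was not high in both glands. At X64589_at denervated glands 1 to 5 had 903, 1892, 851, 168 and 547, against 1026, 1036.5 and 673 in contralateral glands, 1426 in the sham gland and 1719 in the unoperated gland. Denervated 2 was highest of all 10, denervated 5 was below every control, and denervated 4 was lowest. The log2 difference was -0.74 ± 0.58 (SE; limma adjusted p = 0.683), and without denervated 4 it was -0.24. Its dimmer probe set rc_AA998164_s_at ran from 78.9 to 707 in denervated glands and from 31.6 to 850.3 in control glands, with denervated 5 in the middle at 316.

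Promoters of cell division genes often carry CCAAT boxes and the cell cycle homology region (CHR), at which repressor and activator complexes bind in turn. The windows of Cdk1 and Top2a, high in denervated 2 and 5, and of Ccnb1, which was not, are shown because the 3 genes act at neighbouring steps of division. They run from 250 bases before to 50 bases after the start used by RefSeq, read 5′ to 3′ on the gene's strand of GRCr8, with CCAAT and TTTGAA, on either strand, in capitals.
Cdk1, chr20:19265043-19265342, plus strand: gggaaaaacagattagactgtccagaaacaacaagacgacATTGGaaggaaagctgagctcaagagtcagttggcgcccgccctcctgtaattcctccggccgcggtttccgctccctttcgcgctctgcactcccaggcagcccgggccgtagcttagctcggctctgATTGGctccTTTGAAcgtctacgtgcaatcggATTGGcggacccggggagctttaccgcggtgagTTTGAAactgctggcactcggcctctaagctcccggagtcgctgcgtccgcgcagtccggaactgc
Top2a, chr10:84473044-84473343, minus strand: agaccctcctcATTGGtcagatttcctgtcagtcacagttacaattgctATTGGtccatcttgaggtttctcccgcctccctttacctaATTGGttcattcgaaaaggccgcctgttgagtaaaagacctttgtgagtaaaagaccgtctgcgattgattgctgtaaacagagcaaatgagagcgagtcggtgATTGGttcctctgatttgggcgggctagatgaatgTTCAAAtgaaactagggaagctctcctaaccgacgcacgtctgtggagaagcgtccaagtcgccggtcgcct
Ccnb1, chr2:33655176-33655475, minus strand: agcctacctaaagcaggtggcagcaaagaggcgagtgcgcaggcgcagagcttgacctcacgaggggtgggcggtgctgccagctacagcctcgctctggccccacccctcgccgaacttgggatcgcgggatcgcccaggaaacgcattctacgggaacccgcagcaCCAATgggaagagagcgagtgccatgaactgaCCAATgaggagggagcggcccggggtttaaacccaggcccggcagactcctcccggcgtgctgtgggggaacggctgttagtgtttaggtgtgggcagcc
The Cdk1 window held 3 CCAAT boxes and 2 TTTGAA matches, that of Top2a 4 and 1, and that of Ccnb1 2 and 0. Only TTTGAA was searched for as the CHR, so a count of 0 does not show that a window lacks a CHR. Of the members, 8 matched a window of the RefSeq table; 7 of these 8 had a CCAAT box and 2 had TTTGAA, against 37.5% and 18.3% of all 33469 windows of that length. The 2 motifs share no letters in these windows. In the mitotic and replication list described further on, 16 of 21 tested genes had a CCAAT box and 7 had TTTGAA. The E2F letters TTCCCGC or TTGGCGC, on either strand, were found in 8 of the 21 and in 6.26% of all windows. A match describes the letters only.

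Ccnd1, cyclin D1, links growth signals to the cell cycle and had 5 probe sets, which did not move together. At X75207_s_at denervated glands 1 to 5 had 2316.5, 4811, 737, 1372 and 3963, against 676, 702 and 1114 in contralateral glands, 921 in the sham gland and 1497 in the unoperated gland. Denervated 1, 2 and 5 exceeded every control, while denervated 3 and 4 lay among them. Mean log2 intensity was 11.06 ± 1.11 in denervated glands and 9.87 ± 0.48 in control glands (SD, n = 5 each), a log2 difference of 1.19 ± 0.50 (SE; limma unadjusted p = 0.0307, adjusted p = 0.459). It was the single tested probe set of the 10 genes that was higher at an unadjusted p under 0.05, 1 of 18, against 5.02% of all tested. The difference ran from 0.89 to 1.57 leaving out each gland and was positive in each case.

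At the Ccnd1 probe set D14014_at denervated glands 1 to 5 had 827, 10905, 3364.5, 2285 and 3711, against 1337, 1717 and 3022.5 in contralateral glands, 2005 in the sham gland and 1470.3 in the unoperated gland. Denervated 2 was far above all others, and denervated 3 as well as 5 exceeded every control. Its partner D14014_g_at had 284, 8856, 1806, 2787 and 10341 in denervated glands, against 256, 2724 and 2601.5 in contralateral glands, 196 in the sham gland and 1136 in the unoperated gland. Denervated 2 and 5 were at least 3.18 times as high as any other gland, and denervated 1, contralateral 1 and sham were the 3 lowest. The log2 differences were 0.73 ± 0.53 and 1.67 ± 0.97 (SE; limma adjusted p = 0.661 and 0.598).

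The other 2 Ccnd1 probe sets, built on expressed sequence tags, went the other way on average, with log2 differences of -0.61 ± 0.60 at rc_AA957218_at and -0.76 ± 0.61 at rc_AI231257_at (SE; limma adjusted p = 0.753 and 0.702). At rc_AI231257_at denervated 2 was the lowest of the 10 glands with 89.5, and denervated 5 the highest with 1165. At rc_AA957218_at denervated 4 was at the floor with 68.2, and without it the difference was -0.043. Over the 10 glands these 2 probe sets had Pearson correlations from -0.37 to 0.30 with the other 3, which correlated with each other at 0.49 to 0.75. Which of the probe sets follows the Ccnd1 transcript was not tested.

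Ccnd2 and Ccnd3, cyclins D2 and D3, did not follow Ccnd1. At Ccnd2 D16308_at denervated glands 1 to 5 had 936.5, 934.5, 154, 57.6 and 1442, against 316, 341 and 599 in contralateral glands, 779 in the sham gland and 929 in the unoperated gland. Denervated 5 was highest and denervated 3 and 4 were at the floor, so that the denervated glands spread on both sides of the controls. At rc_AA899106_at, by contrast, denervated 5 was the lowest of all glands with 191, while denervated 1 was highest with 2019. The 2 probe sets had a Pearson correlation of -0.049 over the 10 glands. Their log2 differences were -0.12 ± 0.70 and -0.53 ± 0.63 (SE; limma adjusted p = 0.959 and 0.800).

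The brightest Ccnd3 probe set, D16309_g_at, had 5774, 4112, 3767, 3779 and 3185 in denervated glands 1 to 5, against 6439.8, 5530 and 4338 in contralateral glands, 6659.6 in the sham gland and 3848 in the unoperated gland. Denervated 3, 4 and 5 lay below every control, by small margins, and denervated 1 and 2 lay among them. The log2 difference was -0.38 ± 0.25 (SE; limma adjusted p = 0.640), and D16309_at, with a correlation of 0.89 to it, gave -0.39 ± 0.31. The remaining Ccnd3 probe sets U49935mRNA_s_at and U49935mRNA_r_at gave -0.061 ± 0.47 and 0.52 ± 0.68 (SE). Denervated 5 was lowest of the 10 glands at D16309_at, D16309_g_at and U49935mRNA_s_at and highest at U49935mRNA_r_at.

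**Figure D2:**
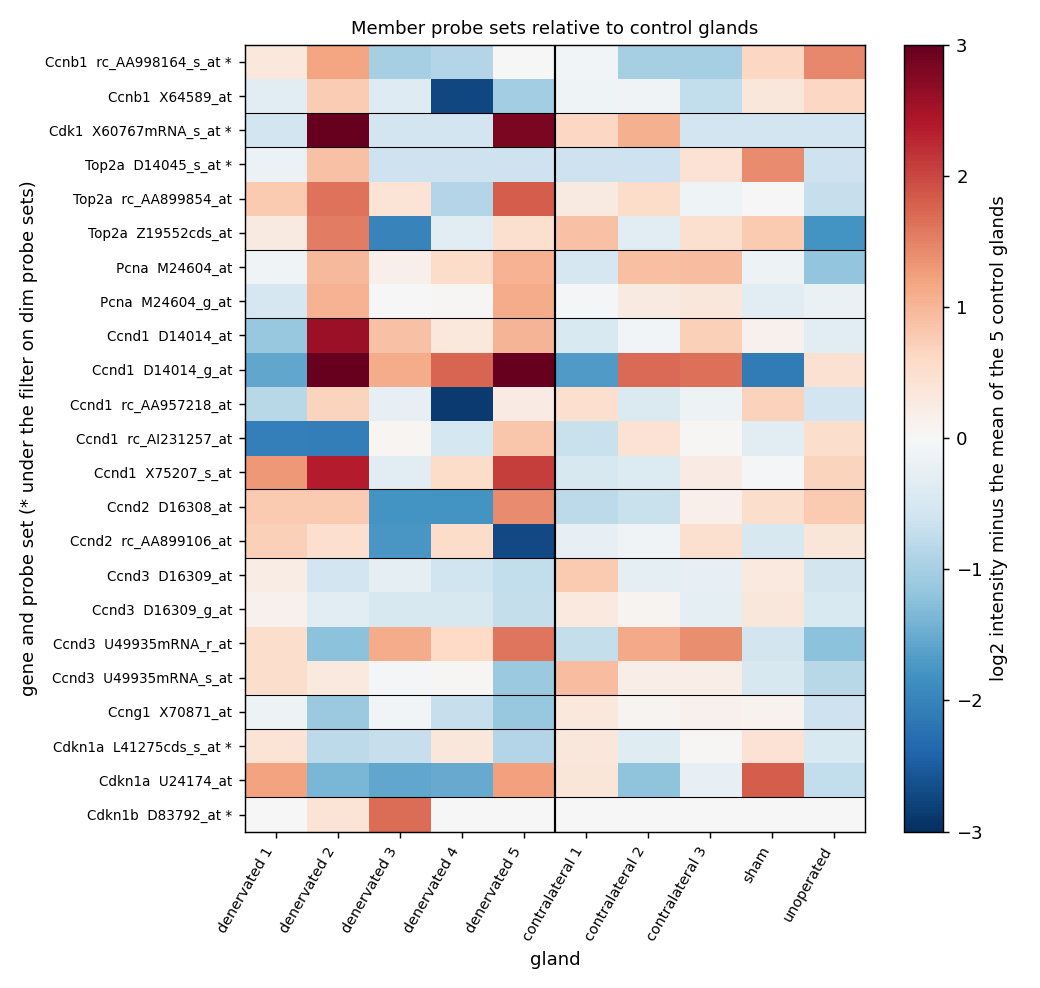
Log2 intensity of the 23 probe sets (rows, grouped by gene) in each gland (columns, denervated glands to the left of the line), with the mean of the 5 control glands taken as 0. Warm colours in denervated 2 and 5 mark Cdk1, Top2a rc_AA899854_at, both Pcna and 3 Ccnd1 probe sets, and cold colours in the same columns mark Ccng1.

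Ccng1, cyclin G1, a target of p53, did not pass the test. Probe set X70871_at had 9015, 4615, 9505, 6210.5 and 4566.5 in denervated glands 1 to 5, against 12429.6, 10606 and 11004 in contralateral glands 1 to 3, 10722 in the sham gland and 6543 in the unoperated gland. All 5 denervated glands lay below the contralateral glands and the sham gland, and the unoperated gland lay within the denervated range. Mean log2 intensity was 12.66 ± 0.51 in denervated glands and 13.29 ± 0.36 in control glands (SD, n = 5 each). The log2 difference was -0.64 ± 0.27 (SE; limma unadjusted p = 0.0345, adjusted p = 0.471), and Ccng1 was the 1 tested probe set of 18 that was lower at an unadjusted p under 0.05, against 4.66% of all tested. Denervated 2 and 5 were the lowest glands, the higher of them 0.743 times the lowest of the other 8. Without both of them the difference was -0.31.

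The kinase inhibitor Cdkn1a (p21), which stops the cycle after stress, was uneven. At U24174_at denervated glands 1 to 5 had 1304, 218.5, 192, 198 and 1343, against 731, 247 and 481 in contralateral glands, 2009 in the sham gland and 339 in the unoperated gland. The sham gland was highest, denervated 1 and 5 exceeded the contralateral and unoperated glands, and denervated 2, 3 and 4 lay below every control. The log2 difference was -0.41 ± 0.75 (SE; limma adjusted p = 0.882). At L41275cds_s_at, under the filter, the range was 161.5 to 396 in denervated glands and 217 to 404 in control glands. There denervated 5 was the lowest gland, while at U24174_at it was the second highest.

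Cdkn1b (p27), which keeps resting cells out of the cycle, was at or below the floor in 3 denervated and all 5 control glands at its single probe set D83792_at. Denervated 2 and 3 were above it with 206 and 501.5. Its control values, from 35.4 to 137, lay below the floor, as did 3 denervated values, so the size of any difference depends on the floor. Without the filter the log2 difference, with all of these values held at the floor, was 0.42 ± 0.30 (SE, limma adjusted p = 0.717).

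Over the 18 tested probe sets, 0 passed in denervated against control glands at an adjusted p under 0.05, against 0% of all 6118 tested. The median log2 difference was -0.090, beside -0.079 for all tested probe sets. The members' median was not firm: it was -0.39 with 1 probe set per gene and ran from -0.36 to 0.12 leaving out each gland. Of the 18, 7 were higher and 11 lower, where 44.6% of all tested were higher. At an unadjusted p under 0.05 stood 2 of 18, against 9.68% of all tested. By role, the median was 0.34 for 5 probe sets of mitotic and replication genes, -0.12 for 11 of D-type cyclins and -0.52 for the 2 of growth arrest genes. For none of the 18 did the 5 denervated glands lie wholly above or below the 5 controls, against 0.637% and 1.03% of all tested.

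**Figure D3:**
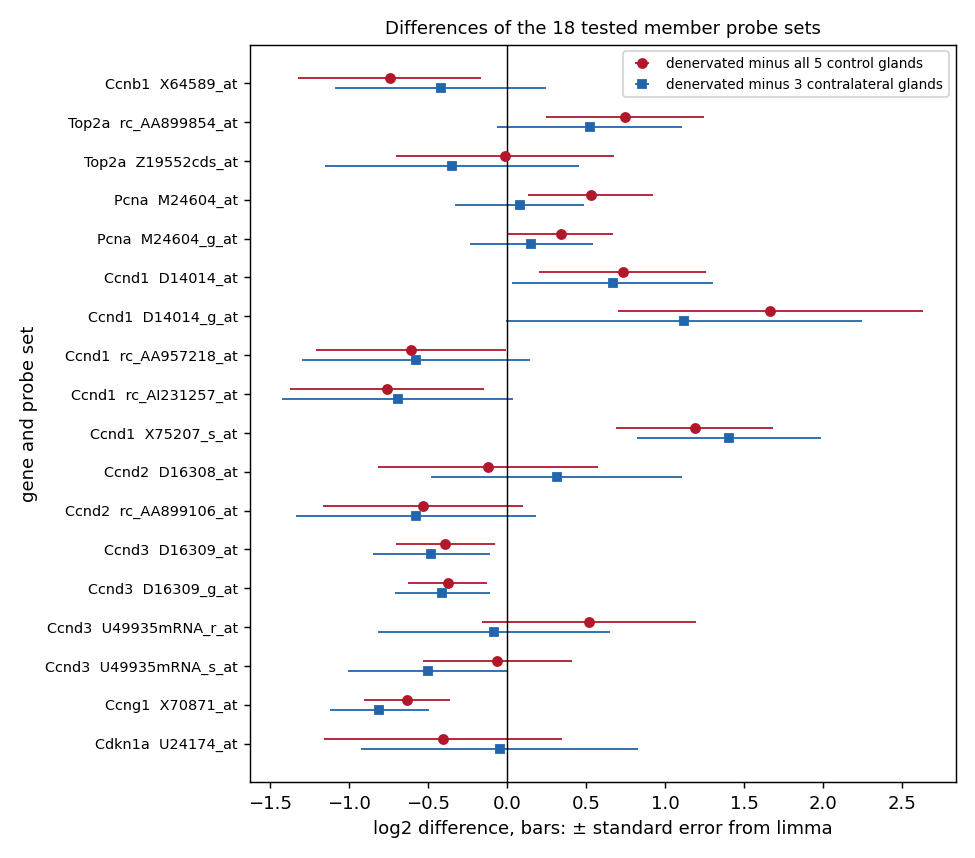
Log2 difference with its standard error from limma for the 18 tested probe sets, for denervated minus all 5 control glands (red circles) and denervated minus the 3 contralateral glands (blue squares). The largest difference is 1.67 ± 0.97 for Ccnd1 D14014_g_at, and that of Ccng1 is -0.64 against all controls and -0.81 against contralateral glands.

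Against the 3 contralateral glands alone, which share the denervated glands with the comparison above, 0 of 18 passed, against 0% of all tested. Of the 18, 7 were higher, where 49.5% of all tested were, and 2 had an unadjusted p under 0.05, against 7.16% of all tested. Ccng1 differed by -0.81 ± 0.31 (log2, SE; limma unadjusted p = 0.0225, adjusted p = 0.653) and was the 1 member whose 5 denervated glands did not overlap the contralateral glands, against 2.55% of all tested in that direction. No member lay wholly above the contralateral glands, against 2.19% of all tested. Mean log2 intensity of Ccng1 in contralateral glands was 13.47 ± 0.12 (SD, n = 3). Ccnd1 at X75207_s_at differed by 1.40 ± 0.58 (log2, SE; limma unadjusted p = 0.0314, adjusted p = 0.654), and no other member had an unadjusted p under 0.05, against 4.15% of all tested higher and 3.01% lower. For Pcna the differences shrank to 0.080 ± 0.41 and 0.15 ± 0.39, the unoperated and sham glands being lower than contralateral 2 and 3 at both probe sets. For Top2a at rc_AA899854_at the difference was 0.52 ± 0.59.

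Intensity above the range of the 5 control glands was limited to denervated 2 and 5 for Cdk1 and for both Pcna probe sets. It was not limited to them for Top2a rc_AA899854_at and Ccnd1 X75207_s_at, where denervated 1 exceeded the controls too. At Ccnd1 D14014_at denervated 3, and at D14014_g_at denervated 4 with 2787, also passed the highest control, at D14014_g_at by little. For Ccnb1 X64589_at and Top2a Z19552cds_at only denervated 2 was above the controls, and for Ccnd2 D16308_at denervated 5 and, narrowly, denervated 1 and 2. At Ccnd2 rc_AA899106_at denervated 1, 2 and 4 exceeded the controls, and at Ccnd1 rc_AI231257_at and Ccnd3 U49935mRNA_r_at denervated 5 alone did. With both glands left out, the log2 difference against controls was 0.10 for Top2a rc_AA899854_at, 0.20 and -0.16 for the 2 Pcna probe sets, and 0.019, 0.43 and 0.50 for Ccnd1 D14014_at, D14014_g_at and X75207_s_at.

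A wider list of 57 mitotic and replication genes had 27 on the array and 21 tested, the 3 tested members included. Of the 21, 17 were higher and 4 lower in denervated than in control glands, with a median log2 difference of 0.24 at 1 probe set per gene; 0 passed the test, and 3 were higher at an unadjusted limma p under 0.05. Of all tested probe sets 44.6% were higher and 5.02% higher at that p. At their other probe sets Bub1b and Cdc25b differed by -1.16 and -1.40, against 0.58 and 0.27 at those used. Top2a differed by -0.012 at Z19552cds_at, while Mcm6, Prim1, Prim2 and Pcna were higher at their other probe sets too. With denervated 2 and 5 left out the median was -0.21, with 7 higher and 14 lower. In 12 of the 21, or 57.1%, denervated 2 and 5 both lay above the other 8 glands, against 9.30% of all tested probe sets, and in 0 both lay below. Counting also the 6 genes under the filter, Cdk1 among them, it was 13 of 27, against 7.20% of all 8740 probe sets.

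Stmn1, stathmin, which disassembles microtubules, had 441, 5422.5, 759, 678 and 3991 in denervated glands 1 to 5, against 128, 766 and 607 in contralateral glands, 1117 in the sham gland and 165.5 in the unoperated gland. Denervated 2 and 5 were 3.57 times or more as high as any other gland, and the log2 difference was 1.70 ± 0.79 (SE; limma unadjusted p = 0.0487, adjusted p = 0.509). Mcm6, a subunit of the replicative helicase, had 5009.9 and 4993 in denervated 2 and 5, against 650 to 2194 in the others. Racgap1, needed for the last step of cell division, had 3125 and 3969, against 56.1 to 1648. Cdc20, which triggers anaphase, had 2369.8 and 2019.6, against 78.9 to 1597. The DNA primase subunit Prim1 differed by 0.98 ± 0.35 (SE; limma unadjusted p = 0.0136, adjusted p = 0.443), with denervated 3 and 4 above every control as well as 2 and 5. Pold1, the catalytic subunit of a replicative polymerase, differed by 1.50 ± 0.59, with denervated 5 highest at 2211. The chromatin protein Hmgb2 differed by 0.92 ± 0.65, and the mitotic kinase Plk1 by -0.54 ± 0.40, with denervated 2 and 5 inside the range of the others.

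Among genes of the G1 phase and the retinoblastoma pathway, 11 of 26 listed were tested, the 3 D-type cyclins included. Here 8 were higher and 3 lower, against 44.6% higher among all tested, and the median log2 difference was 0.31. Of these, 0 passed the test, and 0 had an unadjusted limma p under 0.05. The median was 0.019 with denervated 2 and 5 left out, with 6 higher and 5 lower. It was 0.14 without contralateral 1, sham and denervated 1, with 8 higher and 3 lower. Both denervated 2 and 5 led in 2 of the 11, Ccnd1 and the kinase chaperone Cdc37, or 18.2%, against 9.30% of all tested. The other probe set of Cdc37 differed by -0.25, against 0.18 at the one used. The smallest unadjusted limma p outside the members, 0.136, belonged to the transcription factor E2f5 with a log2 difference of 0.92 ± 0.58 (SE). Next came the tumour suppressor Rb1 (0.73 ± 0.62), the growth regulator Myc (0.55 ± 0.50), the retinoblastoma relative Rbl2 (0.31 ± 0.31) and cyclin E1, Ccne1 (0.48 ± 0.52, but -0.38 at its other probe set).

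Of 34 listed kinase inhibitors and growth arrest genes 15 were tested, of which 4 were higher and 11 lower, where 44.6% of all tested were higher. The median log2 difference was -0.12. In this list 0 passed, and at an unadjusted limma p under 0.05 stood 1 higher, Pmp22, and 1 lower, Ccng1, near the 5.02% and 4.66% of all tested. Both denervated 2 and 5 lay above the others for Btg3 and below them for Ccng1, 1 of 15 each, against 9.30% and 6.37% of all tested. At its other probe set Btg3 differed by -0.82, against 0.57 at the one used. Pmp22, a growth arrest gene that Schwann cells express strongly, differed by 0.88 ± 0.33 (log2, SE; limma unadjusted p = 0.0165, adjusted p = 0.448), but by -1.33 at its other probe set. The antiproliferative gene Btg1 differed by 0.68 ± 0.33, with denervated 4 highest at 25949, and the transcription factor Klf4 by 0.43 ± 0.30. Foxo1, a factor that restrains growth, differed by -0.89 ± 0.75 and Mdm2, the ligase that degrades p53, by -0.59 ± 0.51, but by 0.08 at its other probe set. Gadd45a differed by 1.30, 1.70 and 0.65 at its other probe sets, against -0.088 at the one used. Gas6 and Gas7, lower at the ones used, differed by 0.37 and 0.30 at their others. Without contralateral 1, sham and denervated 1 the list's median was 0.15, with 8 higher and 7 lower. Against contralateral glands, with all glands kept, the median was 0.11, also with 8 higher and 7 lower, where 49.5% of all tested were higher.

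**Figure D4:**
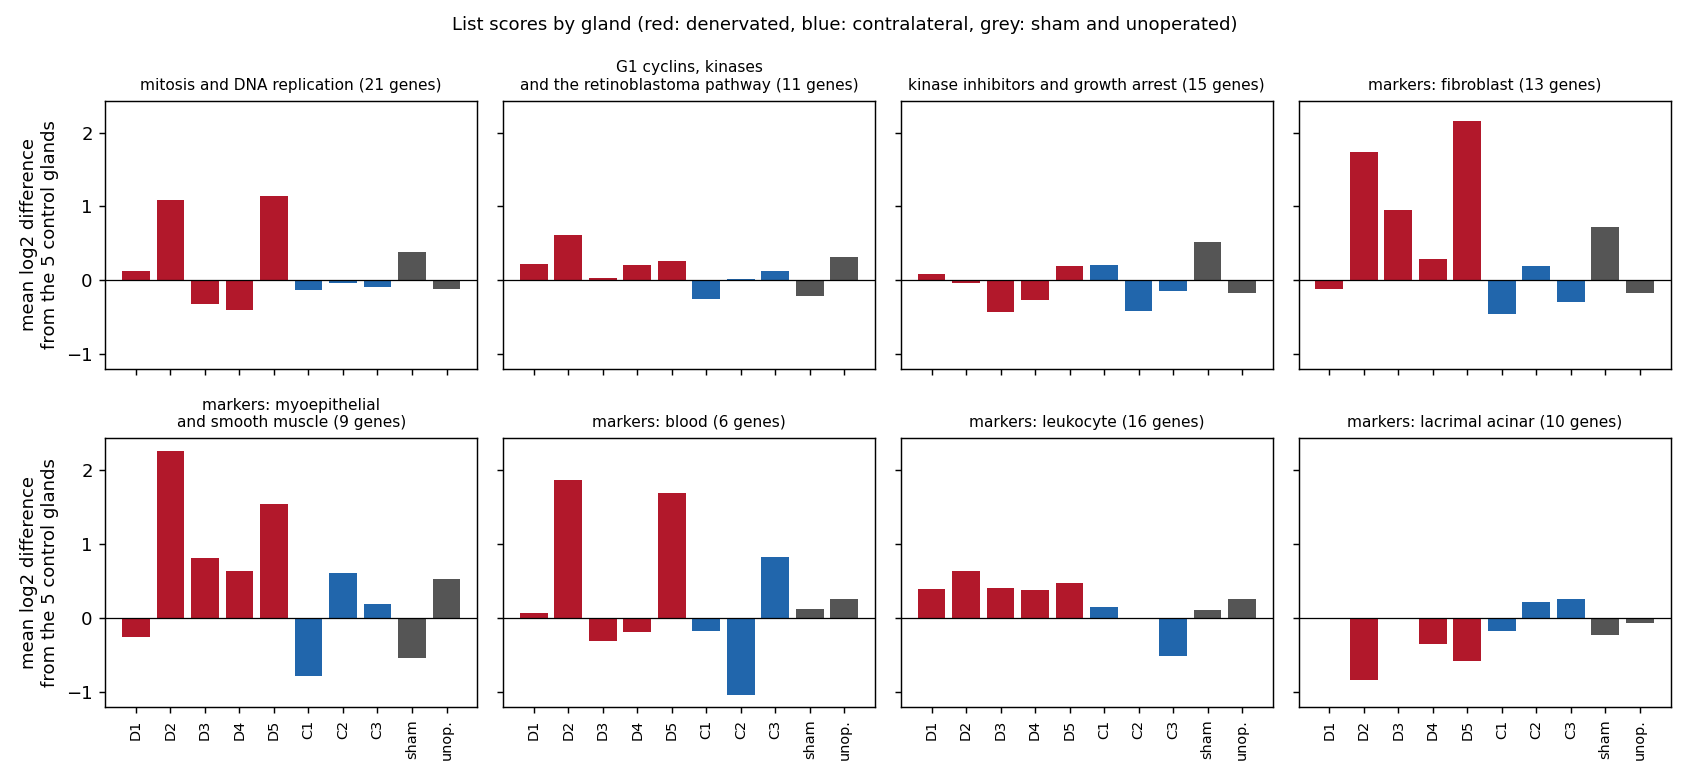
Mean log2 difference of each list from the 5 control glands (bars from 0), in denervated (red), contralateral (blue), sham and unoperated (grey) glands, for 3 cell cycle lists and 5 lists of cell type markers. Mitotic and replication genes score 1.09 in D2 and 1.15 in D5 and at most 0.39 in the other 8 glands. Fibroblast, myoepithelial, blood and, by a smaller margin, leukocyte markers score highest in the same 2 glands.

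Fibroblast, blood and myoepithelial markers were highest in the 2 glands in which the mitotic genes were highest. By their mean score alone so were leukocyte and Schwann cell and nerve markers, the lower of the 2 glands by a small margin. Acinar, endothelial, duct and skeletal muscle markers were not, by the same score. The list score, a mean over genes relative to the control glands (log2), was 1.73 and 2.15 for 13 fibroblast markers in denervated 2 and 5, against -0.45 to 0.95 in the other 8 glands. It was 1.87 and 1.69 for 6 blood cell markers, against -1.04 to 0.83, and 2.27 and 1.55 for 9 myoepithelial and smooth muscle markers, against -0.78 to 0.82. Both lay above the other 8 glands in 10 of 13 fibroblast genes, Col1a1, Col3a1 and Dcn among them (both lay below for Sparc), in 4 of 6 blood genes, which were Hbb, Hbb-b1, Hba-a3 and Alas2, and in 6 of 9 myoepithelial genes, such as Acta2 and Krt14, against 9.30% of all tested probe sets. The summed intensity of fibroblast markers was 143190 to 630456 in denervated glands and 107995 to 200295 in control glands, and that of blood markers 56766 to 387123 and 32563 to 186210. All 13 fibroblast, 6 blood and 9 myoepithelial markers were above the floor in denervated 2 and 5.

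Leukocyte markers scored 0.63 and 0.48 in denervated 2 and 5 and 0.37 to 0.41 in the other 3 denervated glands, against -0.51 to 0.26 in control glands. Their summed intensity was 64042 to 82681 in denervated and 49284 to 59772 in control glands, with 76514.5 and 73912 in denervated 2 and 5. By this sum, which is weighted to bright genes, denervated 2 and 5 were not the 2 highest glands. Lyz2, the brightest gene of the list by mean log2 intensity, was also counted among the acinar markers. Of the 16 genes, 4 led in denervated 2 and 5, against 9.30% of all tested. Of this list, Cd2 and Cd3d fell under the filter. Acinar markers scored -0.84 and -0.58 in denervated 2 and 5, against -0.35 to 0.25 in the other 8. Of 10 acinar genes, both glands lay below the other 8 for Bhlha15, Rab3d and Chrm3, against 6.37% of all tested. Both lay above for Cst3 and Slc12a2, against 9.30%. The summed intensity of acinar markers was 526586 in denervated 2 and 1621985 in denervated 5, against 328565 to 1558978 in the other 8. Endothelial markers scored -0.70 and -0.34 in these 2 glands, against -1.11 to 0.81 in the other 8, and duct markers 0.27 and 0.0020, against -0.29 to 0.47. Schwann cell and nerve markers scored 0.33 and 0.91, against -0.37 to 0.32, and skeletal muscle markers -0.93 and -1.07, against -0.93 to 1.94. In 0 of 6 Schwann cell and nerve genes did both glands lie above the other 8, against 9.30% of all tested. For beta-actin the log2 ratio of 3' over 5' control probes, a measure of RNA quality, was 0.19 and 0.59 in denervated 2 and 5, against 0.61 to 1.14 in the others, and that of GAPDH was 0.0094 and 0.021, against -0.64 to 0.35. The part of these cell types, or of RNA quality, in the levels of the cell cycle genes was not tested.

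The profile of Ccnb1, Top2a and Pcna, taken as the mean of their 5 tested probe sets over the 10 glands, was set against every other named gene. The highest Pearson correlations were 0.91 for Atp2a3, a calcium pump, 0.90 for Atp5f1b, a subunit of ATP synthase, 0.90 for the ribosomal protein Rplp0, 0.89 for the GTPase Cdc42 and 0.87 for the protease Blmh. Atp2a3 had 15937 and 9464 in denervated 2 and 5, against 1389 to 6573 in the others, with denervated 4 lowest. The 5 probe sets that make up the profile correlated with it at 0.38 (Ccnb1) to 0.87 (Top2a rc_AA899854_at), values raised by their own share in it. Of the other members, Ccnd1 correlated with it at -0.31 to 0.67, Ccnd2 at -0.18 and 0.55, Ccnd3 at -0.058 to 0.076, Ccng1 at -0.31 and Cdkn1a at 0.22. These are descriptions over 10 arrays that share their differences across many probe sets.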

How the data were processed

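RNA of 10 rat lacrimal glands was measured on Affymetrix rat arrays, 1 array per gland. The deposited values are scaled intensities on a linear scale as the authors gave them; no source used here names the software. Their scaling was kept. Values were floored at the 20th percentile (156.2) and log2 transformed, 59 control probe sets were dropped, and the 6118 of 8740 probe sets whose mean lay over the 30th percentile were tested with limma 3.58.1 in R 4.3.3 (lmFit, eBayes with a variance trend), with Benjamini-Hochberg adjustment over all of them. Denervated glands were compared with all 5 controls and, in a second fit with sham and unoperated as a class of their own, with contralateral glands. The platform annotation gave 1 symbol to 7006 probe sets, several to 308 and none to 1426. The number of arrays limits precision: standard errors of log2 differences had a median of 0.504. Promoter windows are RefSeq's (GRCr8). The members and lists were chosen with earlier results of these data known. The rule for named genes took every member, the 5 other genes of each list with the smallest unadjusted p and the 5 genes most like the mitotic profile. Other list genes high in denervated 2 and 5 (Mcm6, Racgap1, Cdc20, Cdc37, Btg3) and single markers were chosen after their values were seen. So were list genes named for their other probe sets (Bub1b, Cdc25b, Prim2, Gadd45a, Gas6, Gas7). No label says that replicate numbers pair glands, and they were not treated as pairs: denervated and contralateral glands of the same number had deviations correlated at 0.488, 0.037 and 0.164, not over 0.1 in every pair. The consensus correlation within numbers was 0.313. The procedure was tested on simulated data with independent noise in each probe set and gland. Differences that arrays share across probe sets were not simulated.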

Additional observations from a re-analysis of the deposited data

Results flagged for a closer look

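Cdkn1b at D83792_at had 501.5 in denervated 3, far from the other 4 denervated glands at 30.1 to 206; after flooring, the gap to the nearest of them was 0.763 of the group's range on the log2 scale. All 5 control glands were below the floor. The gap was looked for in the denervated glands at each of the 23 probe sets, and this was the 1 flagged. By chance such a gap is expected in about 1 in 20 groups. That rate need not apply here, since 3 of the 5 values were tied at the floor.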

How the results depend on the processing

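No member passed the test in any alternative. Values are log2 differences. Against controls, Top2a Z19552cds_at was 0.075 with quantile normalization, 0.068 with median scaling, 0.032 with the floor at the 30th percentile and 0.47 without contralateral 1, sham and denervated 1. Ccnd3 U49935mRNA_s_at was 0.063 with quantile normalization, 0.061 with median scaling and 0.18 without denervated 2 and 5, Ccnd2 D16308_at was 0.21 with the higher floor, and Pcna M24604_g_at was -0.16 without denervated 2 and 5. Against contralateral glands, Cdkn1a U24174_at was 0.014 with quantile normalization and 0.17 with the higher floor, and array weights gave Pcna M24604_at -0.16 and Ccnd2 D16308_at -0.25. Without denervated 2 and 5 this comparison gave Top2a rc_AA899854_at -0.12, Pcna M24604_at -0.24, Pcna M24604_g_at -0.34, Ccnd1 D14014_at -0.042, D14014_g_at -0.12, Ccnd2 D16308_at -0.50 and Ccnd3 U49935mRNA_r_at 0.14. Without contralateral 1, sham and denervated 1 it gave Pcna M24604_at -0.23 and Ccnd2 D16308_at -0.086. With a replicate block it gave Ccnb1 X64589_at 0.34, Pcna M24604_at -0.10 and Pcna M24604_g_at -0.0026, and 0 of 6118 probe sets passed. The contralateral comparison had 1 probe set past the threshold without the variance trend and 1 with array weights. Leaving out each gland, the control comparison had 0 to 70 past the threshold (70 without denervated 1, 0 of them members), Top2a Z19552cds_at -0.46 to 0.49, Ccnd2 D16308_at -0.50 to 0.30, Ccnd2 rc_AA899106_at -0.84 to 0.0056, Ccnd3 U49935mRNA_s_at -0.27 to 0.20 and Cdkn1a U24174_at -0.82 to 0.050. The contralateral comparison had Ccnb1 X64589_at -0.80 to 0.079, Top2a Z19552cds_at -0.74 to 0.15, Pcna M24604_at -0.39 to 0.32, Pcna M24604_g_at -0.041 to 0.37, Ccnd1 D14014_g_at -0.0064 to 1.92, Ccnd2 D16308_at -0.069 to 0.73, Ccnd3 U49935mRNA_r_at -0.74 to 0.36 and Cdkn1a U24174_at -0.47 to 0.32. The cause of these reversals was not tested. The members' median was -0.39 with 1 probe set per gene, -0.28 with array weights, 0.016 with quantile normalization and 0.032 with the higher floor, against -0.090. Median scaling put the median of all tested probe sets at 0.042, against -0.079, and the probe sets at an unadjusted p under 0.05 at 371 higher and 154 lower, against 307 and 285. Both denervated 2 and denervated 5 led in 5 of 18 tested member probe sets with median scaling, against 6.28% of all tested, and 6 with quantile normalization, against 8.14%; Pcna M24604_at dropped out in both. Counts by gland and list medians without glands were chosen after seeing the data.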
